A study of Arabidopsis thaliana with 13 samples.

Results

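bHLH34 (AT3G23210) and bHLH104 (AT4G14410) are basic helix-loop-helix transcription factors of Arabidopsis thaliana that act in the response to iron shortage. Each is represented by 1 probe set annotated to it alone, and together they are 2 of the 13286 genes so represented. The pair was chosen by its daily course of signal on these same arrays. Transcripts were measured on 13 Affymetrix ATH1 arrays of whole Col-0 seedlings (with no mutation or treatment named), a single array for each time point, at steps of 4 h between hours 26 and 74. Per the labels, seedlings were kept at 22 C under a photoperiod of 12 h in a growth room, and the MS agar held 3% sucrose. The labels leave unsaid which event hour 0 marks, whether the lights kept cycling during sampling, how many seedlings a sample pooled, or how much iron the medium held. Times of day are therefore given as the hour of the course modulo 24.

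In plants, iron is scarce in a usable form and toxic in excess, so its uptake is under tight transcriptional control. bHLH34 and bHLH104 belong, with ILR3 and bHLH115, to the group called IVc, whose members pair with themselves and with each other. Under iron shortage they switch on PYE and the group Ib bHLH genes. The Ib proteins in turn drive the uptake of iron, and PYE, a repressor, tunes its distribution. Ligases of the BRUTUS type mark iron regulators for breakdown, and small IMA peptides favour uptake.

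The signal was an intensity on a linear scale. Its mean without the top and bottom 2% was 100.01 on every array, as a scaling of each array to the same target gives. Over 22746 non-control probe sets, the array medians ran from 46.8 to 50.9. No time point was replicated, so errors and p-values reflect how far the arrays lie from a fitted curve, and their number limits the precision. Scaling of this kind hides a change in total RNA per cell, and in whole seedlings fewer cells of a type and less RNA per cell cannot be told apart. Markers of both organs were present. PYK10, a root beta-glucosidase, had signals of 2524 to 3492, and RCA, the Rubisco activase of leaves, had signals of 2418 to 3950. The root markers EXPA7 and EXPA18 were dim, with signals of 21.7 to 60.8 and 35.3 to 64.9. Of 3 root markers (PYK10, EXPA7 and EXPA18) 0 were called rhythmic in limma, and of 3 leaf markers (RCA, LHCB4.1 and SBPASE) 1 was, SBPASE. The share over the 7252 tested loci was 16.8%, and 3 markers are too few to be set against it. The summed signal was 2592 to 3559 over the root markers, nearly all of it from PYK10, and 6584 to 9778 over the leaf markers. SBPASE, an enzyme of the Calvin cycle, had a fitted peak at hour 19.1 (amplitude 0.38 ± 0.06, SE, log2 scale, adjusted p = 0.0014), and the part of a change in organ share in the courses of the pair was not tested.

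bHLH34 had a deep trough at hour 10 of the day and stood high late in the cycle. In the earlier cycle its signal was 107.4 at hour 26, 116.2 at hour 30, 69.0 at hour 34, 102.8 at hour 38, 142.6 at hour 42 and 179.5 at hour 46. In the later cycle it was 126.9 at hour 50, 128.4 at hour 54, 69.4 at hour 58, 106.5 at hour 62, 111.8 at hour 66 and 143.7 at hour 70. The last array, at hour 74, gave 155.3. The 2 arrays of hour 10, those of hours 34 and 58, lay below all 11 others, of which the lowest was 102.8.

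The trough of bHLH34 was entered within a single sampling step in each cycle. At hour 58 the signal was lower than at hour 54 by a factor of 1.85, and at hour 34 it was lower than at hour 30 by a factor of 1.68. The return took longer. At hour 62 the signal was 1.54 times that of hour 58, and at hour 38 it was 1.49 times that of hour 34, and it went on to higher values over the next arrays. The highest signal, at hour 46, was 2.60 times the lowest, at hour 34.

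bHLH104 had a shallower course with its high values in the middle of the cycle. Its signal was 113.4 at hour 26, 121.7 at hour 30, 118.6 at hour 34, 147.3 at hour 38, 151.2 at hour 42 and 129.1 at hour 46. In the later cycle it was 106.3 at hour 50, 118.1 at hour 54, 121.6 at hour 58, 128.1 at hour 62, 125.5 at hour 66 and 102.9 at hour 70, and hour 74 gave 100.6. In each cycle the arrays of hours 14 and 18 were above those of hours 2, 6 and 10. The highest signal, at hour 42, was 1.50 times the lowest, at hour 74.

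**Figure D1:**
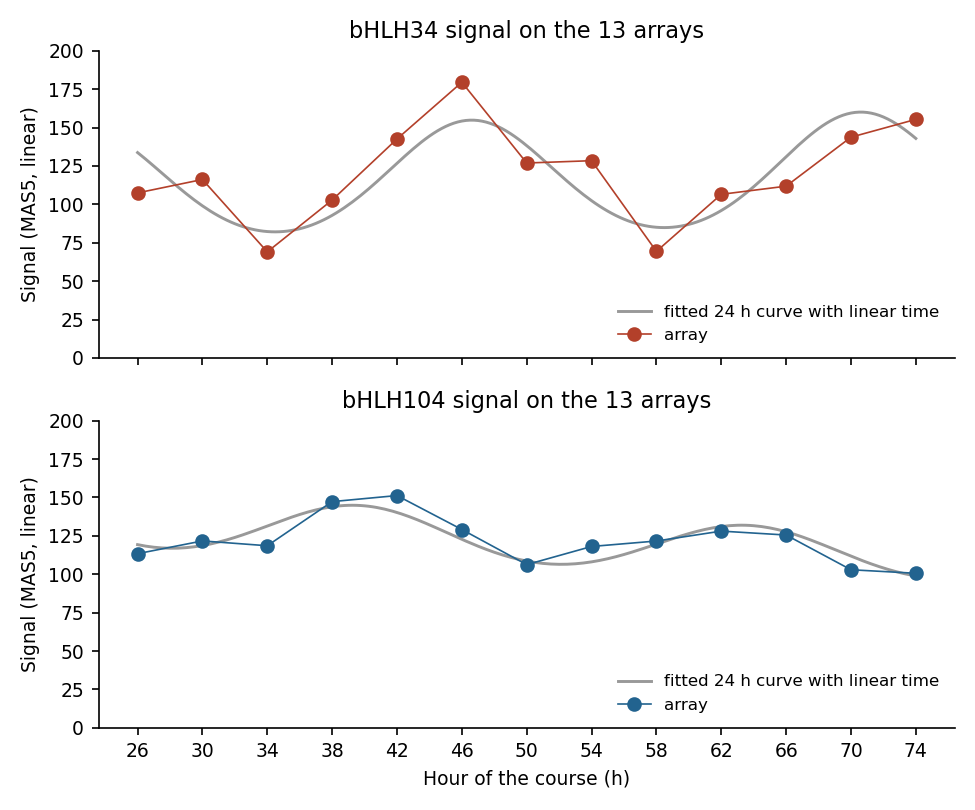
MAS5 signal (linear scale, from 0) of bHLH34 (upper panel) and bHLH104 (lower panel) against the hour of the course; each point is 1 array and the grey line is the fitted 24 h curve with linear time. bHLH34 reaches its lowest values of 69.0 and 69.4 at hours 34 and 58, while bHLH104 stays between 100.6 and 151.2.

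A 24 h cosine with a linear time term was fitted to log2 signal with limma. Since the daily course chose the pair, the amplitudes and peaks are a description and carry no test. For bHLH34 the amplitude, the height of the curve above its mean, was 0.45 ± 0.09 (SE, log2 scale), a change from trough to peak of 1.85-fold. For bHLH104 it was 0.19 ± 0.05 (SE), a change of 1.30-fold. The amplitude of bHLH34 was thus 2.38 times that of bHLH104, a difference of 0.26 ± 0.11 (SE). Of the 13647 probe sets bright enough to be analysed, 93.0% had a smaller amplitude than bHLH34 and 64.6% a smaller one than bHLH104.

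The fitted peak lay at hour 22.5 ± 0.79 for bHLH34 and at hour 15.7 ± 1.09 for bHLH104 (SE, h). bHLH34 therefore peaked 6.86 ± 1.35 h after bHLH104 (SE). The fitted troughs were at hours 10.5 and 3.69 for bHLH34 and bHLH104. The order of the peaks can be read from the arrays: bHLH104 was highest at hour 42 and bHLH34 at hour 46 in the earlier cycle, and in the cycle that followed bHLH104 was highest at hour 62 and bHLH34 at hour 70 among hours 50 to 70. Leaving out each array in turn gave peak differences of 5.92 h to 7.74 h.

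The curve with its time term left larger residuals for bHLH34, the gene of larger amplitude, than for bHLH104. The residual SD was 0.27 (log2) for bHLH34 and 0.10 for bHLH104, and 82.0% and 6.61% of the probe sets analysed had a smaller one. The curve and the time term together took up 67.7% of the variance of bHLH34 and 78.2% of that of bHLH104. The share of the cosine alone was not computed. Both troughs of bHLH34 lay under the curve, by -0.29 at hour 58 and -0.25 at hour 34 (observed minus fitted, log2), and the arrays just before them lay above it, by 0.33 at hour 54 and 0.23 at hour 30. The residuals of bHLH104 were -0.15 at hour 34, 0.13 at hour 54 and 0.04 at hour 30, of the same sign, but 0.02 at hour 58. Hour 34 was also the lowest array of IMA1, PYK10 and SBPASE, though not of ILR3, PYE or URI. Whether these deviations belong to the arrays or to the genes was not tested. With 12 h terms added to allow an uneven wave, an alternative chosen after the values were seen, the curve of bHLH34 had its trough at hour 10.9 and its peak at hour 19.9. That of bHLH104 had its peak at hour 16.7 with these terms, so the peaks were then 3.16 h apart, and bHLH34 was still the later.

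The later cycle, hours 50 to 70, was next compared with the earlier one, hours 26 to 46. These are the arrays by which the pair was chosen, so the comparison is not independent of that choice. For bHLH34 the amplitude was 0.38 ± 0.14 in the later cycle and 0.52 ± 0.14 in the earlier one, a ratio of 0.73. For bHLH104 it was 0.15 ± 0.07 in the later cycle and 0.20 ± 0.07 in the earlier one, a ratio of 0.75 (SE, log2 scale). The difference in amplitude, later minus earlier, was -0.14 ± 0.19 for bHLH34 and -0.05 ± 0.11 for bHLH104, each within its standard error.

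The fitted peaks of the later cycle lay on opposite sides of those of the earlier one, with wide errors. bHLH34 peaked at hour 23.3 ± 1.36 in the later cycle and at hour 21.5 ± 0.99 in the earlier one, a shift of 1.82 ± 1.68 h. bHLH104 peaked at hour 12.9 ± 1.88 in the later cycle and at hour 16.6 ± 1.41 in the earlier one, a shift of -3.71 ± 2.35 h (SE). The gap between the peaks, bHLH34 minus bHLH104, was 10.5 ± 2.32 h in the later cycle and 4.93 ± 1.72 h in the earlier one. Among periods from 20 h to 30 h, the whole course was fitted best at 26 h for bHLH34 and at 22 h for bHLH104.

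In limma, neither gene passed the test that compares its cycles (unadjusted p = 0.44 for bHLH34 and 0.30 for bHLH104, adjusted p = 1.00 for each). Over all 13647 probe sets 0 were called, or 0%, and 450 had an unadjusted p under 0.05. With 12 arrays the interval of a peak shift is several hours wide, so the test does not show that the cycles were alike.

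**Figure D2:**
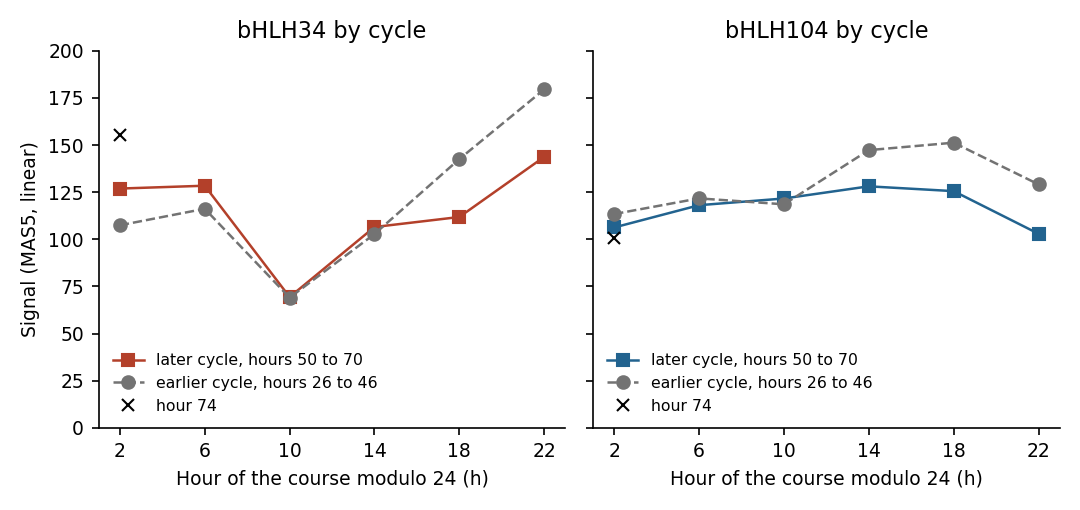
MAS5 signal (linear scale) of bHLH34 (left) and bHLH104 (right) against the hour of the course modulo 24; squares are the arrays of the later cycle, circles those of the earlier cycle and the cross is hour 74. The bHLH34 signals of hours 10 and 14 nearly coincide, while those of hours 18 and 22 are 111.8 and 143.7 in the later cycle, against 142.6 and 179.5 in the earlier one.

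Arrays taken 24 h apart show where each course repeated. For bHLH34 the later signal divided by the earlier was 1.00 for hours 58 and 34 and 1.04 for hours 62 and 38, but 0.78 for hours 66 and 42 and 0.80 for hours 70 and 46. It was 1.18 for hours 50 and 26, 1.11 for hours 54 and 30 and 1.22 for hours 74 and 50. The arrays of hours 10 and 14 thus nearly coincided, the later arrays were lower at hours 18 and 22, and they were higher at hours 2 and 6. For bHLH104 the ratio was lowest, at 0.80, for hours 70 and 46, and closest to 1 for hours 58 and 34 (1.03) and hours 54 and 30 (0.97). The later array was lower in 6 of 7 such pairs for bHLH104 and in 2 of 7 for bHLH34. The root mean square difference between arrays 24 h apart was 0.24 (log2) for bHLH34 and 0.18 for bHLH104, against a median of 0.24 over the probe sets analysed.

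Drift over the course, apart from the daily wave, was called for neither gene. The slope was 0.05 ± 0.11 for bHLH34 and -0.14 ± 0.06 for bHLH104 (SE, log2 per 24 h). The limma test gave an adjusted p of 0.93 for bHLH34 and 0.40 for bHLH104, with unadjusted p of 0.66 and 0.038, and 0.96% of all probe sets were called as drifting. The slope of bHLH34 turned to -0.07 without hour 26 and to -0.12 without hours 26 and 74, and was not called there either.

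To place the pair in its pathway, 73 other loci of iron regulation, uptake, transport, storage and iron-sulfur assembly were listed. Of these, 19 had a probe set with a single named gene, 16 were bright enough to be tested, and 3 were too dim (bHLH18, bHLH19 and bHLH25). The other 54 were not analysed here. Names are those of the list where the gene table gives only a locus. By the moderated F of limma, 1 of the 16 (6.25%) was rhythmic, against 16.8% of the 7252 tested loci. An unadjusted p under 0.05 was found for 3 of the 16, and the share over all loci at that threshold was not counted. The median amplitude of the 16 was 0.13, against 0.14 over all tested loci (log2 scale). Levels of different probe sets cannot be set against each other, so the genes were compared by amplitude and peak only.

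The nearest relatives in the IVc group were ILR3 and bHLH115. ILR3, the third member of the IVc group, had signals between 346.1 and 478.7 with a median of 395.0, and a fitted amplitude of 0.07 ± 0.06 (SE, log2 scale). bHLH115, the last of the group, had signals between 157.8 and 304.7 with a median of 209.6, and an amplitude of 0.11 ± 0.11 (SE). Neither was called (limma, adjusted p of 0.63 for ILR3 and 0.73 for bHLH115), and their differences in amplitude from bHLH34 and bHLH104 were not tested. The value of bHLH115 rested on single arrays: it was 0.04 without hour 54 and 0.20 without hour 42, where bHLH104 had 0.16. Fitted by cycle, the amplitude of bHLH115 was 0.23 in the later cycle and 0.19 in the earlier one, beside the 0.15 and 0.20 of bHLH104. Its fitted peaks lay far apart, at hour 9.26 ± 2.50 in the later cycle and hour 1.75 ± 2.99 in the earlier one (SE). ILR3 had an amplitude of 0.11 in each cycle, with peaks at hours 14.4 ± 2.86 and 7.35 ± 2.94 (SE). The highest bHLH115 signals were those of hours 30 and 54, which are 24 h apart, at 293.2 and 304.7. Hybridisation of 1 family member to the probe set of another was not tested.

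URI (AT3G19860), a bHLH protein that works together with the IVc group, had its fitted peak at hour 9.15. Its signal was 55.9, 73.0, 83.5, 82.5, 62.5 and 59.4 at hours 26, 30, 34, 38, 42 and 46, then 78.7, 95.1, 94.4, 63.8, 66.4 and 70.4 at hours 50 to 70, and 61.3 at hour 74. The highest arrays of each cycle were those at hours 34 and 38 and at hours 54 and 58. URI was thus high at hours 34 and 58, where bHLH34 was at its lowest. It was as high at hours 38 and 54, where bHLH34 had signals of 102.8 and 128.4. The fitted amplitude was 0.28 ± 0.08 (SE, log2 scale), and the gene was not called (limma, adjusted p = 0.062). It was called without hour 62 (adjusted p = 0.024) and without hour 74 (adjusted p = 0.037), and its adjusted p over all alternatives lay between 0.024 and 0.20. The fitted peak was hour 6.45 ± 1.13 in the later cycle and hour 11.2 ± 1.08 in the earlier one (SE), a difference between cycles with an unadjusted p = 0.044 and an adjusted p = 1.00.

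Of the targets of the IVc group named above, PYE and the group Ib genes, PYE and bHLH101 could be tested. PYE, a bHLH repressor that tunes iron distribution, had signals of 107.7 to 184.6, a fitted amplitude of 0.14 ± 0.09 on the log2 scale (SE; 0.08 without hour 58), and its peak was at hour 19.4. bHLH101, of the Ib group that works with FIT to drive uptake, had signals of 25.7 to 71.5 with a median of 38.3, an amplitude of 0.37 ± 0.15 (SE) and a fitted peak at hour 6.46. Neither was called (limma, adjusted p of 0.50 for PYE and 0.20 for bHLH101). bHLH101 was called without hour 34 (adjusted p = 0.028), the array of its lowest signal.

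IMA1 (AT1G47400), which encodes a short peptide that promotes iron uptake, was the iron gene called rhythmic. Its signal was 745.0 at hour 26, 286.8 at hour 30, 260.2 at hour 34, 707.9 at hour 38, 718.5 at hour 42 and 728.2 at hour 46. In the later cycle it was 482.1 at hour 50, 394.1 at hour 54, 557.4 at hour 58, 709.5 at hour 62, 921.1 at hour 66 and 929.6 at hour 70, and hour 74 gave 676.9. The low arrays were at hours 30 and 34 and at hours 50 and 54. The amplitude was 0.63 ± 0.12 (SE, log2 scale), a 2.38-fold change from trough to peak (limma, adjusted p = 0.0056), and 96.7% of the probe sets analysed had a smaller one.

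The fitted peak of IMA1, at hour 19.6 ± 0.66 (SE), fell between those of the pair in the plain 24 h fit. In that fit bHLH34 peaked 2.92 ± 1.03 h after IMA1, and the bHLH104 peak minus that of IMA1 was -3.93 ± 1.28 h (SE). These differences carry no test. With the added 12 h terms the peak of bHLH34 was at hour 19.9, and IMA1 was not refitted with them. The order of bHLH34 and IMA1 thus depends on the shape of the curve. The call for IMA1 was lost at a 26 h period (adjusted p = 0.075) and without moderation of the variances (adjusted p = 0.051), and its adjusted p over the other alternatives was between 4.2e-04 and 0.020.

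**Figure D3:**
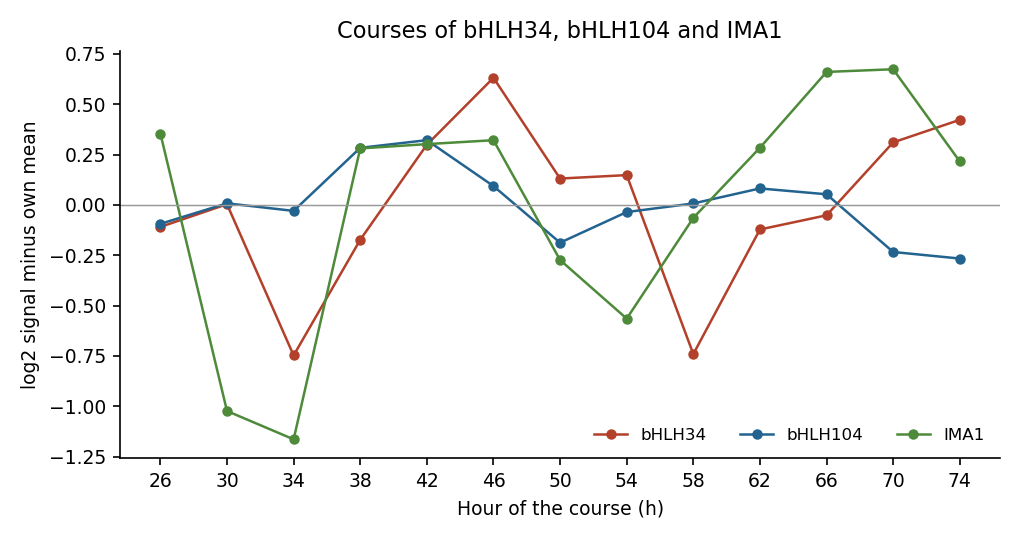
Log2 signal minus the gene's own mean over the 13 arrays, against the hour of the course, for bHLH34, bHLH104 and IMA1; each point is 1 array. bHLH34 is lowest at hours 34 and 58, IMA1 at hours 34 and 54 within its cycles, and bHLH104 varies least.

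The remaining iron genes gave no call. BTSL1 and BTSL2, ligases related to BRUTUS, had amplitudes of 0.02 ± 0.10 and 0.05 ± 0.09 (SE, log2 scale). Among genes of root secretion, S8H and F6H1, enzymes of coumarin synthesis, had amplitudes of 0.25 ± 0.14 and 0.09 ± 0.16, and the beta-glucosidase BGLU42 had one of 0.16 ± 0.06. The mitochondrial iron transporters MIT1 and MIT2 had amplitudes of 0.04 ± 0.08 and 0.09 ± 0.07. For the iron-sulfur proteins NFS2, a cysteine desulfurase of plastids, and ISU1, a scaffold protein of mitochondria, they were 0.14 ± 0.07 and 0.04 ± 0.08, and bHLH20 (NAI1) had one of 0.16 ± 0.12 (SE). These small amplitudes moved with single arrays. F6H1 had 0.05 without hour 58 and 0.23 without hour 34, BTSL1 had 0.12 without hour 58, BTSL2 0.12 without hour 42, MIT1 0.10 without hour 62, ISU1 0.10 without hour 34, and bHLH20 0.05 without hour 26 and 0.25 without hour 62, and none of these 6 genes was called in any such fit. Across the 15 uncalled genes the adjusted p ranged from 0.062 to 0.98.

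**Figure D4:**
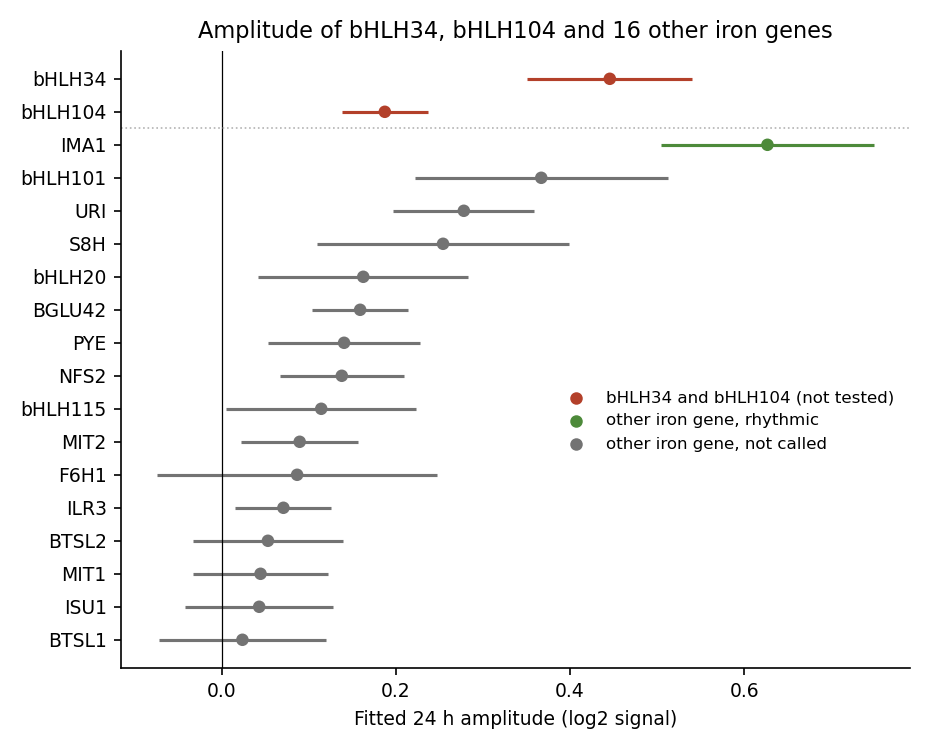
Fitted 24 h amplitude (log2 signal) with its standard error as a bar, for bHLH34 and bHLH104 at the top and the 16 tested iron genes beneath, in order of amplitude; green marks the gene called rhythmic. IMA1 has an amplitude of 0.63 and bHLH34 one of 0.45, and 4 of the 16 exceed the 0.19 of bHLH104.

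None of the 16 iron genes drifted in limma, with 0 rising and 0 falling against 0.359% and 0.601% of all probe sets. For drift 0 of the 16 had an unadjusted p under 0.05, against 1520 of all 13647 probe sets, and 16 genes are few for such a comparison. Their slopes lay between -0.17 and 0.25 (log2 per 24 h). For the difference between cycles 0 of 16 were called and 2, URI and F6H1, had an unadjusted p under 0.05, against 450 of all 13647 probe sets. Without moderation 0 were called for either. Of the 5 other loci that the gene table names as bHLH proteins, 4 were tested, all of them in the iron list (ILR3, bHLH115, URI and bHLH101). Of these 4 loci 0 were rhythmic in limma, against 16.8% of the 7252 tested loci, and so few loci cannot be set apart from that share. An unadjusted p under 0.05 was found for 1 of the 4, and the share over all loci at that threshold was not counted.

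The genes most like each of the pair were taken by Pearson's r of log2 signal over the 13 arrays, among the 7347 tested probe sets with a single named gene. For bHLH34 they were AT3G52740 (r = 0.93), AT2G47010 (0.90), AT1G04350 (0.88), AT4G26860 (0.88) and AT2G37240 (0.87). All 5 had their lowest signal at hour 34, as bHLH34 had, and AT4G26860 had the widest fitted change, 2.60-fold with a peak at hour 21.8. For bHLH104 they were AT1G52200 (r = 0.89), tny (0.87), AT1G06100 (0.84), AT1G26850 (0.84) and AT5G58950 (0.84). All 5 of these had their lowest signal at hour 74, as bHLH104 had, and AT1G52200 had the widest fitted change, 1.60-fold with a peak at hour 15.0. These r values share the same arrays, the same scaling and the same daily wave, and they were picked as the highest of many, so they carry no p. A lowest array shared with bHLH34 or bHLH104 is part of what a high r selects, so it is no separate result. Between bHLH34 and bHLH104 themselves r was -0.11.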

How the data were processed

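Total RNA of whole seedlings was measured on 13 arrays, 1 per time point. Each probe set has 1 deposited intensity per array, on a linear scale. Per the submitters' processing notes these are MAS5 values, and the version is not given in the sources used. Detection calls were not used. A probe set was named where the platform annotation gave 1 gene (13513 of 22746, of which 13436 matched the TAIR10.1 gene table), and the brightest probe set stood for a locus. No coordinates are given, since no genome build is named for the array.

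Log2 signal was analysed for the 13647 non-control probe sets with a mean above the 40th percentile (a signal of 31.8). limma 3.58.1 in R 4.3.3 fitted linear time with the cosine and sine of 24 h (lmFit, and eBayes with an intensity trend). The moderated F of the cosine and sine terms tested rhythm, and the time term tested drift. Cycles were compared on 12 arrays, without linear time, through separate cosine and sine terms for the later cycle and a shift of its mean. Calls were Benjamini-Hochberg adjusted p-values under 0.05 over all probe sets tested. Standard errors of amplitudes and peaks came from the delta method with moderated variances. Those of differences among bHLH34, bHLH104 and IMA1 took the errors of the genes as independent, though the genes share the same arrays.

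bHLH34, bHLH104 and the gene lists were chosen with earlier results of these data known. Named were the pair, every tested iron gene, tested bHLH relatives and the 5 closest profiles of each. The fits were tested on simulated data. Alternatives changed the scaling, offset, filter, variance model, curve and arrays. Figures were drawn with matplotlib 3.10.9.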

Additional observations from a re-analysis of the deposited data

How the results depend on the processing

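The peak of bHLH34 stayed within its standard error under every other scaling, offset, period, time term and set of arrays tried, from 22.0 to 22.9 with each array left out, and moved to hour 19.9 with added 12 h terms, which took the peak difference to 3.16 h (5.92 to 7.74 with each array left out). The amplitude of bHLH34 was 0.34 with an offset of 32 added before the log, which compresses changes by construction, and 0.36 to 0.52 with each array left out. For bHLH104 the amplitude was 0.16 to 0.21 and the peak hour 15.1 to 16.1 with each array left out. Its amplitude was 0.15 with the offset of 32. Its peak over the other alternatives ran from hour 14.9, without linear time, to hour 16.7, with added 12 h terms. The slope of bHLH34 reversed at a 26 h period (-1.7e-05), without hours 26 and 74 (-0.12) and without hour 26 (-0.071; at most 0.10 with a single array left out), and was not called in any of these. That of bHLH104 was -0.16 to -0.11 with each array left out, and -0.17 without hours 26 and 74. The cycle test of either gene had an adjusted p of 0.95 to 1.00 with an array left out.

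The count of rhythmic iron genes, 1 of 16, was 0 at 26 h and without moderation, and 1 to 2 with an array left out (2 without hour 34, 62 or 74). That of the bHLH relatives was 0 to 1, with 1 without the same arrays. Over all probe sets, 131 drifted, against 8 without moderation, 46 at 26 h, 20 without hours 26 and 74, and 48 to 169 with an array left out (48 without hour 26, 79 without hour 42, 75 without hour 74); the cause was not tested. Rhythmic probe sets numbered 2504 (18.3%), and 2050 to 2443 with an array left out. The arrays form a single course with 1 array per time point, so there were no replicates to pair. Arrays 24 h apart were set side by side as ratios, with no test. Depth is not defined for arrays, so precision rests on how many arrays there were.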
